A study of Mus musculus with 20 samples.

Results

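The genes described here are 10 growth factor receptors of developing axons: the neurotrophin receptors Ntrk2, Ntrk3 and Ngfr, the insulin-like growth factor receptor Igf1r, the fibroblast growth factor receptors Fgfr1, Fgfr2 and Fgfr3, the glial cell line-derived neurotrophic factor (GDNF) family receptors Gfra1 and Gfra2, and the hepatocyte growth factor receptor Met. They were listed by name and are 10 of 55487 genes in the count table. All 10 were matched to 1 gene each. The RNA came from subcerebral projection neurons, which lie in the cortex and send axons to brainstem and spinal cord, and the mice were at postnatal day 1. It was taken either from growth cones, the motile tips of growing axons, which were collected from those targets, or from somata, the cell bodies, which were collected from cortex. In each compartment the mice were wild type (WT) or are labelled Bcl11b KO, for Bcl11b, a transcription factor gene needed for the development of these neurons. The 4 groups of 5 libraries each share the age and the neuron type, and the labels name neither the strain, the null allele nor a Cre driver. The labels do not say whether a library came from 1 animal or a pool, or whether libraries are separate animals, so p-values measure the spread between these libraries, part of which may be technical.

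Growth factor receptors carry a signal from a ligand outside the axon to the cytoskeleton and, by transport of the activated receptor, to the cell body. Ntrk2 (TrkB), Ntrk3 (TrkC), Igf1r, the Fgfr genes and Met encode receptor tyrosine kinases, which act through adaptor proteins on the Ras/MAP kinase, PI3 kinase and phospholipase C pathways. Ngfr (p75) is a neurotrophin receptor without a kinase, and Gfra1 and Gfra2 are membrane-anchored ligand-binding proteins that signal through the kinase Ret or the adhesion molecule Ncam1. Some of these genes are also known from glia: Fgfr3 from astrocytes and radial glia, and Ntrk2 from astrocytes, which carry mainly a form without the kinase.

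On the mouse build GRCm38, whose gene coordinates the count table carries, the genes lie on 8 chromosomes. Ntrk2 (ENSMUSG00000055254.15) spans chr13:58806569-59133970 on the plus strand. Fgfr1 (ENSMUSG00000031565.18) spans chr8:25513654-25575718, Fgfr3 (ENSMUSG00000054252.18) chr5:33721674-33737068, Gfra2 (ENSMUSG00000022103.10) chr14:70890120-70979838 and Met (ENSMUSG00000009376.15) chr6:17463800-17573980, all on the plus strand. Ntrk3 (chr7:78175959-78738012, minus strand), Igf1r (chr7:67952827-68233668, plus strand) and Fgfr2 (chr7:130162451-133123350, minus strand) share a chromosome. Ngfr spans chr11:95568818-95587735 and Gfra1 chr19:58235604-58455909, both on the minus strand. Counts were summed over all annotated exons of a gene, so forms of a receptor are not separated: Ntrk2 has 7 complete coding transcript models that encode 466 to 821 residues, and Ntrk3 has 4 that encode 612 to 864. Exons of 4 receptor genes overlap another annotated gene. The overlap is 998 bases (13.9% of the exon length) for Fgfr3 with G630022F23Rik on the opposite strand, and the use of strand in counting is not given in the sources used here. G630022F23Rik itself was at a mean of 0.785 CPM or less in every group. Gfra1 overlaps Gm16277 by 416 bases and Fgfr1 overlaps Gm16159 by 164 bases, both on the opposite strand, and Fgfr2 overlaps Ctbp2 by 314 bases on its own strand.

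Promoter sequences are shown for the 3 genes that passed the compartment test below and have an entry among the RefSeq promoters (build GRCm38.p6). Each runs from 250 bases before to 50 bases after a transcription start. In total 7 of the 10 receptor genes had an entry. Capitals mark 2 letter strings searched on both strands, TGACCA (the string known to be bound by Bcl11a, the paralog of Bcl11b) and GGGCGG (the GC box). The marked stretches do not overlap each other.
Ntrk2, chr13:58806319-58806618, plus strand: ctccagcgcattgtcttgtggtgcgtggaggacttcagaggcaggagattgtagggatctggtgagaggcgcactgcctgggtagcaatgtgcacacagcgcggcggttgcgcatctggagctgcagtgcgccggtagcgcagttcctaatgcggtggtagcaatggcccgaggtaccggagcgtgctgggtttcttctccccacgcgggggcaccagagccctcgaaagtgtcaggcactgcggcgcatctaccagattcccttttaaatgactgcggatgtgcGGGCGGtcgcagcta
Fgfr3, chr5:33721474-33721773, plus strand: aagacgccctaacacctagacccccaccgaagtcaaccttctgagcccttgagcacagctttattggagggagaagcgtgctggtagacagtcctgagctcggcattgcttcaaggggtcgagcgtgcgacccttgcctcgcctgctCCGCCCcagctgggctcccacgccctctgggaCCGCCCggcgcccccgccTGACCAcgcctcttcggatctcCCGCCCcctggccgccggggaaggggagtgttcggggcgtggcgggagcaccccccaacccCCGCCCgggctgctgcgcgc
Met, chr6:17463707-17464006, plus strand: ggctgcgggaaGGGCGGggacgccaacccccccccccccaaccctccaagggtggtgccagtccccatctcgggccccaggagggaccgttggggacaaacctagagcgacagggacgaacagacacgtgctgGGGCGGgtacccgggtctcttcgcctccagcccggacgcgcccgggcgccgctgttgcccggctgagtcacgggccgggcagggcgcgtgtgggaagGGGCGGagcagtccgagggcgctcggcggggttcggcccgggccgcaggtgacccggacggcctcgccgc
TGACCA stood once in the Fgfr3 promoter shown and in none of the other 7 promoter entries of the receptor genes, which include a second entry of Fgfr3. It stood in 13.6% of all 32851 RefSeq promoters of this length. GGGCGG stood 1 time in the promoter of Ntrk2, 4 times in that of Fgfr3 and 3 times in that of Met, and in 35.7% of all promoters. A match is a description of the letters and not a measured site.

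The libraries held 18962308 to 51205154 counts each. Levels are CPM, counts scaled to a common library size by TMM over the 20 libraries, and every error is an SD over n = 5 libraries. Over libraries of a group, the receptors varied by a coefficient of variation between 8.67% (Ntrk2, somata labelled KO) and 177% (Ngfr, somata labelled KO). Counting error alone at the mean count of these groups was 0.75% and 25%. All 12 markers of subcerebral projection neurons had counts in each group, with a summed level of 1433 to 1872 CPM (WT growth cones), 1346 to 1928 CPM (growth cones labelled KO), 3069 to 3529 CPM (WT somata) and 3960 to 4156 CPM (somata labelled KO). The markers did not move as one between the soma groups. The most abundant, Neurod6 and Bcl11b, averaged 729 and 700.4 CPM in WT somata and 1032 and 1151 CPM in somata labelled KO. Crym and Pcp4, chosen after their values were seen, averaged 210.03 and 43.3 CPM in WT somata and 45.7 and 11.98 CPM in somata labelled KO. Bcl11b itself went against the soma labels: relative to library totals it was at 1023 to 1151 CPM in somata labelled KO and at 494 to 780 CPM in WT somata, a log2 difference of 0.74 (p = 0.00794 by a two-sided exact permutation test, which cannot give a smaller p here). In growth cones the difference was -0.04 (p = 0.905, the same exact permutation test). The allele is not named in the labels, so counts over the whole gene need not show the lesion. The libraries are therefore called labelled KO throughout.

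**Figure D1:**
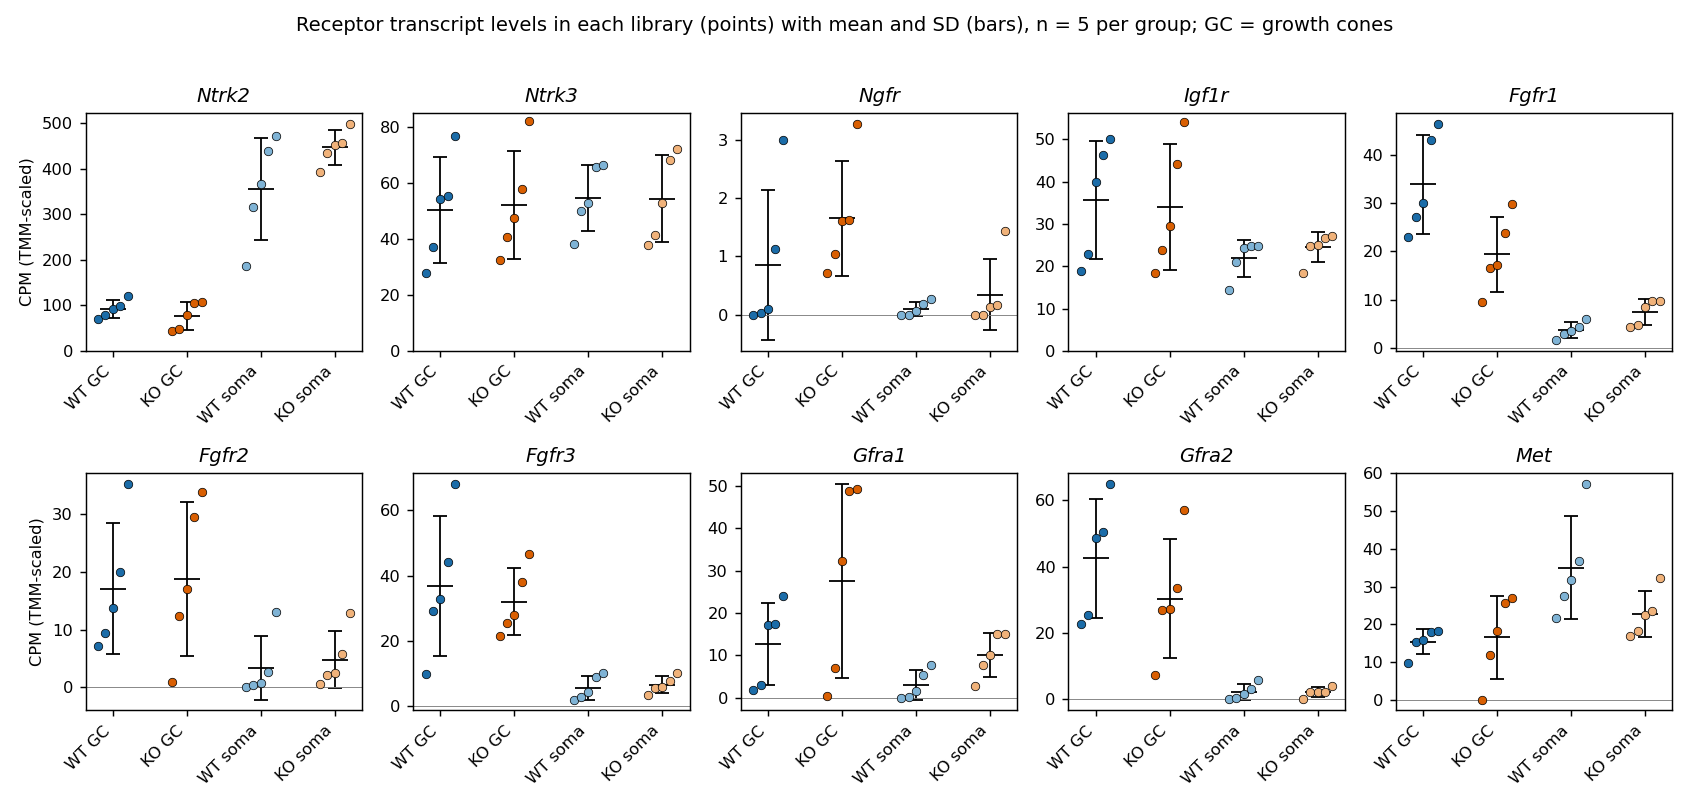
Level of each receptor in every library (points, TMM-scaled CPM, a separate axis for each gene), with the mean and SD of 5 libraries as bars, for growth cones (GC) and somata of WT mice and mice labelled KO. Ntrk2 is higher in every soma library than in any growth cone library, and Gfra2 is higher in every growth cone library than in any soma library.

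The question of the compartment comparison is which receptor transcripts are relatively richer in growth cones and which in cell bodies. In WT mice, Fgfr1, Fgfr3 and Gfra2 were higher in growth cones, and Ntrk2 and Met were higher in somata. Those are 5 of the 9 receptor genes tested at an edgeR false discovery rate (FDR) under 0.05, while 42.8% of all genes tested passed the same threshold. Ngfr did not reach the minimum count and was not tested. In mice labelled KO, Fgfr1, Fgfr3 and Gfra2 were again higher in growth cones and Ntrk2 higher in somata, 4 of 10 tested against 38.6% of all genes. The share of receptors called was thus near that of all genes, and which receptors passed is given here as a description. In these bulk libraries, fewer cells of a type and less RNA per cell cannot be told apart.

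**Figure D2:**
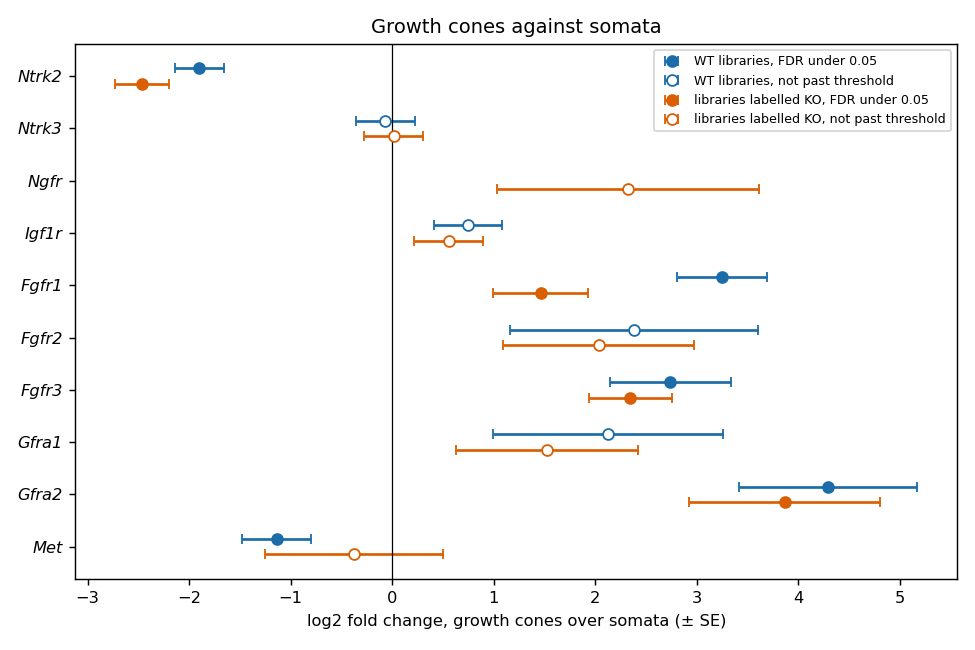
Log2 fold change of each receptor between growth cones and somata (edgeR estimate, bars show the standard error), in WT libraries and libraries labelled KO, with filled points where FDR was under 0.05. Gfra2, Fgfr1 and Fgfr3 lie to the right of 0 and Ntrk2 to the left in both sets, and Ngfr was not tested in WT.

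Among the neurotrophin receptors, Ntrk2, which binds brain-derived neurotrophic factor and neurotrophin 4, was higher in somata. In WT growth cones it stood at 98.7, 92.8, 78.8, 120.2 and 70.6 CPM (experiments 7 to 11). In WT somata it stood at 187, 316, 366, 471 and 439 CPM (experiments 12, 14, 22, 25 and 26). Every WT soma library lay above every WT growth cone library, with the library of experiment 12 lowest among somata. The log2 difference of growth cones against somata was -1.90 ± 0.24 (SE, edgeR FDR = 6.66e-05).

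In growth cones labelled KO, Ntrk2 stood at 43.3, 78.1, 106, 48.4 and 107 CPM (experiments 7 to 11). In somata labelled KO it stood at 499.5, 452, 392, 436 and 457 CPM (experiments 14, 15, 22, 25 and 26). The 2 compartments again did not overlap, and the growth cone libraries fell into lower values in experiments 7 and 10 and higher ones in 8, 9 and 11. The log2 difference was -2.46 ± 0.26 (SE, edgeR FDR = 2.71e-05).

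Ntrk3, the receptor for neurotrophin 3, had close means in both compartments: 50.2 ± 18.8 CPM in WT growth cones, 54.6 ± 11.9 in WT somata, 52.1 ± 19.2 in growth cones labelled KO and 54.4 ± 15.4 in somata labelled KO. The log2 difference of growth cones against somata was -0.07 ± 0.29 (SE) in WT and 0.02 ± 0.29 in libraries labelled KO, and both signs turned with the scaling or the test used. TPM divides counts by the length of all annotated exons, 19292 bases for Ntrk2 and 30170 for Ntrk3, and shares depend on these lengths. It is then scaled to a common total in each library, without the TMM scaling used for CPM. In TPM, Ntrk2 made up 74.2% ± 9.27 of the summed Ntrk2 and Ntrk3 level in WT growth cones and 90.8% ± 1.41 in WT somata. The shares in libraries labelled KO were 68.3% ± 11.3 and 92.8% ± 1.72. No growth cone library reached the lowest soma share, which was 88.5%.

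Ngfr was near the limit of detection. It reached 2.99 CPM in 1 WT growth cone library and was at 0 to 1.12 CPM in the other 4. In growth cones labelled KO it was at 0.719 to 3.27 CPM. In somata it ranged over 0 to 0.269 CPM (WT) and 0 to 1.43 CPM (labelled KO). The gene entered the KO compartment test because all 5 growth cone libraries passed the minimum and only 1 soma library did, and it was not called (log2 2.32 ± 1.29 SE, edgeR FDR = 0.179).

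Igf1r, which binds insulin-like growth factors and is known for its part in axon outgrowth of these neurons, passed no test between compartments at the main settings. Its mean was 35.6 ± 13.9 CPM in WT growth cones, 21.9 ± 4.42 in WT somata, 34.0 ± 14.9 in growth cones labelled KO and 24.5 ± 3.55 in somata labelled KO. Growth cone libraries were more spread and overlapped the somata in both sets. The log2 difference of 0.75 ± 0.34 (SE) in WT did not pass the threshold (edgeR FDR = 0.0925), nor did 0.56 ± 0.34 in libraries labelled KO (edgeR FDR = 0.218). Under upper-quartile scaling and with DESeq2 the WT difference passed, with adjusted p = 0.0344 and 0.0315.

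The 3 fibroblast growth factor receptors had higher means in growth cones than in somata in both sets, and Fgfr1 and Fgfr3 passed the test in both. Fgfr1 stood at 23.1, 46.5, 30.0, 43.2 and 27.2 CPM in WT growth cones (experiments 7 to 11). In WT somata it stood at 3.54, 4.22, 2.96, 6.02 and 1.61 CPM (experiments 12, 14, 22, 25 and 26). The lowest growth cone library was well above the highest soma library, and the log2 difference was 3.25 ± 0.44 (SE, edgeR FDR = 0.000109).

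In libraries labelled KO the compartments lay closer together for Fgfr1. Growth cones stood at 9.61, 29.9, 17.2, 23.8 and 16.5 CPM (experiments 7 to 11). Somata stood at 8.37, 9.81, 9.82, 4.39 and 4.69 CPM (experiments 14, 15, 22, 25 and 26). The growth cone library of experiment 7 fell among the 3 highest soma libraries, so the ranges overlapped. The log2 difference was 1.47 ± 0.47 (SE, edgeR FDR = 0.0271), and it missed the threshold without the low-count filter (FDR = 0.0574) and when any of 4 libraries was left out, the growth cones of experiment 8 (FDR = 0.0718) or the somata of experiment 14 (0.0513), 25 (0.0669) or 26 (0.0733).

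Fgfr3 stood at 68.1, 29.3, 44.3, 9.98 and 32.8 CPM in WT growth cones (experiments 7 to 11). In WT somata it stood at 4.48, 10.1, 2.93, 2.07 and 9.12 CPM (experiments 12, 14, 22, 25 and 26). Only the growth cone library of experiment 10 fell below a soma library, that of experiment 14. The log2 difference was 2.74 ± 0.60 (SE, edgeR FDR = 0.00293).

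In growth cones labelled KO, Fgfr3 stood at 28.0, 46.7, 38.1, 21.7 and 25.6 CPM (experiments 7 to 11). In somata labelled KO it stood at 5.98, 10.3, 5.74, 7.89 and 3.39 CPM (experiments 14, 15, 22, 25 and 26). These ranges did not overlap, and the log2 difference was 2.35 ± 0.41 (SE, edgeR FDR = 0.000875).

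Fgfr2 was the most uneven of the 3, with 7.15 to 35.2 CPM in WT growth cones, 0.870 to 33.8 in those labelled KO, 0 to 12.98 in WT somata and 0.652 to 12.9 in those labelled KO. Single libraries held most of the soma level: the WT library of experiment 22 was at 12.98 CPM and the other 4 at 2.60 or less. Only 4 WT soma libraries reached the minimum count for Fgfr2, so the WT test took it in through growth cones. The log2 difference was 2.38 ± 1.22 (SE, edgeR FDR = 0.136) in WT and 2.03 ± 0.94 (edgeR FDR = 0.109) in libraries labelled KO. With DESeq2 it passed the threshold in both (adjusted p = 0.0467 and 0.0367). Without the WT soma library of experiment 22 it passed in WT with edgeR (log2 4.16, FDR = 0.0213), and without the growth cone library of experiment 7 it passed in libraries labelled KO (log2 2.29, FDR = 0.0372). In TPM summed over the 3 genes, WT growth cones held 27.2 ± 5.99 and WT somata 4.88 ± 1.41, and the sums in libraries labelled KO were 22.8 ± 8.03 and 7.02 ± 2.39. TPM carries no TMM scaling, so these sums are not on the scale of the CPM values. Fgfr3 had the largest mean share of that sum in all 4 groups, from 43.4% ± 7.14 in somata labelled KO to 55.9% ± 17.1 in growth cones labelled KO.

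Of the GDNF family receptors, Gfra2, the binding partner of neurturin, was higher in growth cones in both sets. All 5 growth cone libraries of each set reached the minimum count for Gfra2, but only 4 soma libraries did. Both tests therefore took it in through growth cones. In WT growth cones it stood at 22.7, 64.9, 50.4, 25.5 and 48.6 CPM (experiments 7 to 11). In WT somata it stood at 0.0627, 5.77, 1.69, 2.99 and 0.573 CPM (experiments 12, 14, 22, 25 and 26). Growth cones and somata were far apart, with the soma library of experiment 12 near 0. The log2 difference was 4.30 ± 0.88 (SE, edgeR FDR = 0.00194).

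In growth cones labelled KO, Gfra2 stood at 7.21, 33.6, 27.2, 57.0 and 26.8 CPM (experiments 7 to 11). In somata labelled KO it stood at 2.36, 4.11, 0.0210, 2.16 and 2.30 CPM (experiments 14, 15, 22, 25 and 26). The ranges did not overlap, although the growth cone library of experiment 7 lay close to the highest soma library. The log2 difference was 3.87 ± 0.94 (SE, edgeR FDR = 0.00670).

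Gfra1, the binding partner of GDNF, scattered over a wide range in growth cones, from 1.98 to 24.0 CPM in WT and from 0.480 to 49.2 CPM in libraries labelled KO. In somata it was at 0.0976 to 7.86 CPM in WT and at 2.92 to 15.2 CPM in libraries labelled KO. Only 3 WT soma libraries reached the minimum count for Gfra1, so the WT test took it in through growth cones. The compartments overlapped in both sets, and neither log2 difference passed (WT 2.13 ± 1.13 SE, edgeR FDR = 0.150, labelled KO 1.52 ± 0.90, edgeR FDR = 0.206). Without the growth cone library of experiment 10, the lowest for this gene, the difference in libraries labelled KO passed (log2 1.82, edgeR FDR = 0.0418).

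Met, the receptor for hepatocyte growth factor, was the other receptor that was higher in somata. In WT growth cones it stood at 15.8, 15.2, 9.78, 18.1 and 17.96 CPM (experiments 7 to 11). In WT somata it stood at 21.7, 31.8, 27.5, 36.9 and 57.3 CPM (experiments 12, 14, 22, 25 and 26). The ranges did not overlap, by a narrow margin, and the log2 difference was -1.14 ± 0.34 (SE, edgeR FDR = 0.0175). This call was lost in a fit of all 20 libraries (log2 -1.18, FDR = 0.182) and without the WT soma library of experiment 25 (FDR = 0.0522).

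In growth cones labelled KO, Met stood at 0.0414, 26.96, 25.5, 18.3 and 11.8 CPM (experiments 7 to 11). The first of these is a single count, so this library stood apart from the other 4. It was also the lowest growth cone library labelled KO for Ntrk2, Fgfr1, Fgfr2 and Gfra2. It was not the lowest for Ntrk3, Igf1r, Fgfr3 and Gfra1, and it was the highest for Ngfr. In somata labelled KO it stood at 18.3, 23.6, 17.0, 32.3 and 22.4 CPM (experiments 14, 15, 22, 25 and 26). The compartments overlapped, and the log2 difference was -0.38 ± 0.88 (SE, edgeR FDR = 0.768).

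Of the 9 receptors tested in WT, 4 had compartments that did not overlap (Ntrk2, Fgfr1, Gfra2 and Met), and this held for 37.9% of all genes tested. In libraries labelled KO it held for 3 of the 10 tested (Ntrk2, Fgfr3 and Gfra2) and for 36.9% of all genes. Both shares of receptors lay near those of all genes.

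Levels were compared between genes in TPM, which divides by exon length. That length covers all annotated exons, with 3539 bases for Gfra2, 19292 for Ntrk2 and 30170 for Ntrk3, so the order depends on it. In CPM, without this division, Ntrk2 averaged 92.2 and Gfra2 42.4 in WT growth cones. In WT somata Ntrk2 was first at 59.9 ± 19.2 TPM, then Met at 14.8 ± 5.96 and Ntrk3 at 5.88 ± 1.37, and the ranges of these 3 neighbours did not overlap. From Ntrk3 downward each neighbour overlapped the next, through Igf1r, Fgfr3, Gfra2, Gfra1, Fgfr1 and Fgfr2 to Ngfr at 0.0958 ± 0.111. In somata labelled KO Ntrk2 led at 75.6 ± 9.36 TPM and Met followed at 9.63 ± 2.62, again without overlap between them, and all later neighbours overlapped. In WT growth cones Gfra2 led at 31.9 ± 11.8 TPM, before Fgfr3 at 13.6 ± 7.57, Ntrk2 at 13.03 ± 3.69 and Fgfr1 at 9.34 ± 3.05, and every neighbour in the order overlapped the next. In growth cones labelled KO the order began with Gfra2 at 24.9 ± 17.9 TPM, Gfra1 at 12.6 ± 10.5, Fgfr3 at 12.1 ± 4.32 and Ntrk2 at 10.7 ± 3.97. Only the last step there, from Ntrk3 to Ngfr, had no overlap.

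**Figure D3:**
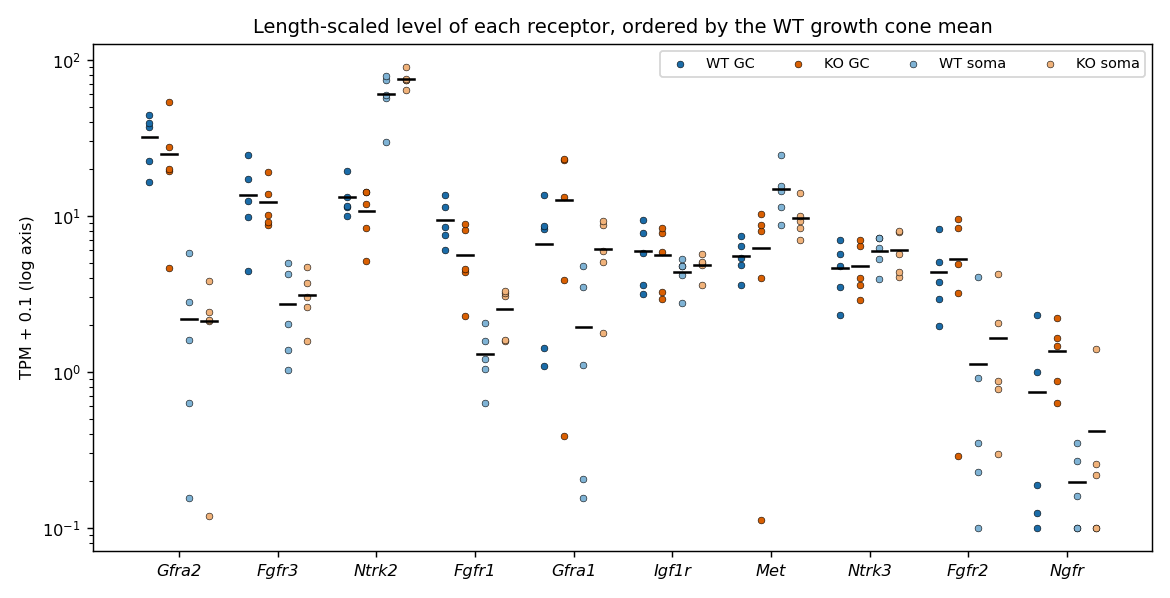
Length-scaled level (TPM + 0.1, log axis) of each receptor in every library (points) with the group mean (line), ordered by the mean in WT growth cones. Gfra2 leads in growth cones, Ntrk2 stands alone at the top in somata, and Ngfr is lowest in all 4 groups.

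Markers of other cell types differed between the compartments alongside these receptors. The 12 astrocyte markers summed to 1158 to 1679 CPM (WT growth cones), 1124 to 1669 CPM (growth cones labelled KO), 28.4 to 361 CPM (WT somata) and 165 to 513 CPM (somata labelled KO), and all 12 had counts in each group. Their most abundant gene in growth cones was Apoe (522 CPM on average in WT growth cones, 71.8 in WT somata). The 10 markers of radial glia and progenitors, all detected, summed to 1273 to 2063, 1234 to 2054, 38.4 to 139 and 61.7 to 172 CPM in the same order of groups, with Fabp7 at 1218 CPM in WT growth cones and 53.3 in WT somata. The 11 markers of the oligodendrocyte lineage, all detected, summed to 532 to 2220, 573 to 1642, 66.4 to 129 and 89.6 to 127 CPM. The part of glial RNA in the higher Fgfr1, Fgfr3 and Gfra2 levels of growth cones was not tested. Ntrk2 in both sets and Met in WT were lower in growth cones, and the part of glial RNA in their levels was not tested either.

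Markers of 3 classes of neuron also stood higher in growth cones. The 12 markers of hindbrain and spinal cord neurons summed to 68.9 to 139 CPM (WT growth cones) and 39.4 to 190.2 CPM (growth cones labelled KO), and to at most 0.180 CPM in somata, where 6 (WT) and 7 (labelled KO) of them were at 0. The 6 motor neuron markers summed to 66.0 to 94.3, 22.7 to 115, 8.06 to 22.8 and 0.676 to 17.0 CPM, with the defining genes Chat and Mnx1 at 0 in WT growth cones and in both soma groups. The 9 markers of forebrain interneurons summed to 638 to 887, 612 to 1011, 121 to 202 and 411 to 545 CPM. Most of the soma sums came from Npy, at 113 CPM on average in WT somata and 471 CPM in somata labelled KO. Markers of vessels, pericytes and meninges (12 genes) summed to 149 to 219, 135 to 242, 1.98 to 26.6 and 11.1 to 67.0 CPM. Microglial markers (8 genes) overlapped in all groups, at 53.8 to 77.5, 17.9 to 118, 39.4 to 154 and 48.2 to 147 CPM. Schwann cell markers (7 genes) summed to 32.6 to 59.9, 26.4 to 67.2, 0.0314 to 12.3 and 2.14 to 12.3 CPM, with the defining gene Cdh19 at 0 in every group. The part of these cells in the receptor levels was not tested.

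The genotype comparison asks whether receptor transcripts differ where Bcl11b is labelled null. No receptor passed the test in either compartment. In growth cones 0 of 10 receptors were called, and 0 of 15419 genes (0%). At an unadjusted edgeR p under 0.05 there were 0 receptors and 329 genes (2.13%), and DESeq2 called 11 genes, none a receptor. The receptors split evenly, 5 with a higher and 5 with a lower mean estimate. The estimates farthest from 0 were Gfra1 at 1.07 ± 0.99 (SE), Ngfr at 0.95 ± 1.23 and Fgfr1 at -0.78 ± 0.40 on the log2 scale, each with FDR = 0.999 in edgeR. The values of Ntrk2 (-0.26 ± 0.29), Gfra2 (-0.43 ± 0.50), Fgfr3 (-0.19 ± 0.45), Fgfr2 (0.19 ± 0.77), Met (0.13 ± 0.92), Ntrk3 (0.06 ± 0.35) and Igf1r (-0.05 ± 0.41) were within 1 SE of 0. These errors leave room for sizeable differences in both directions for Gfra1, Ngfr, Met and Fgfr2.

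In somata 0 of 9 tested receptors were called, against 109 of 14911 genes (0.731%), and 0 receptors under DESeq2, which called 402 genes. An unadjusted p under 0.05 was reached by 2 receptors (22.2%), where 8.57% of all genes reached it. Fgfr1 averaged 7.42 ± 2.69 CPM in somata labelled KO and 3.67 ± 1.63 in WT somata (log2 1.01 ± 0.45 SE, unadjusted p = 0.0435, edgeR FDR = 0.550). Met averaged 22.7 ± 6.03 CPM in somata labelled KO and 35.04 ± 13.6 in WT somata (log2 -0.63 ± 0.27 SE, unadjusted p = 0.0388, edgeR FDR = 0.527). For both genes the libraries of the 2 genotypes overlapped, as listed per library above.

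The other soma estimates were Gfra1 at 1.75 ± 0.96 (SE, edgeR FDR = 0.728), Fgfr2 at 0.51 ± 1.24, Ntrk2 at 0.33 ± 0.20, Fgfr3 at 0.21 ± 0.51, Igf1r at 0.16 ± 0.20, Gfra2 at -0.02 ± 1.10 and Ntrk3 at -0.01 ± 0.22. Ngfr was not tested. The means of Gfra1 were 10.2 ± 5.17 CPM in somata labelled KO and 3.04 ± 3.43 in WT somata, with overlapping libraries. No receptor had genotype groups without overlap in growth cones (0.532% of all genes did) or in somata (3.17% of all genes did).

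**Figure D4:**
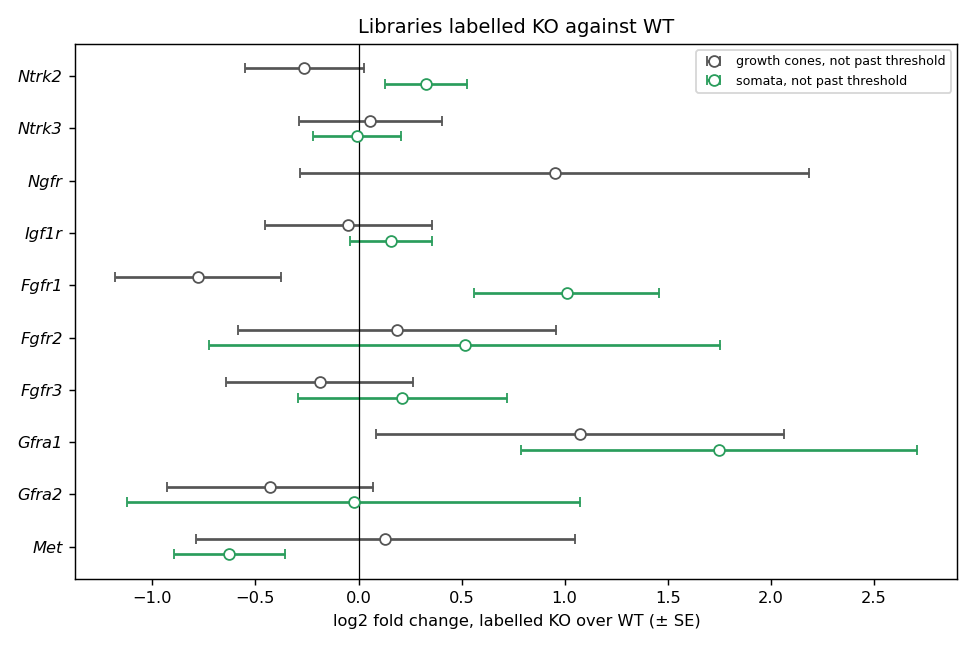
Log2 fold change of each receptor between libraries labelled KO and WT libraries (edgeR estimate, bars show the standard error), in growth cones and in somata. All points are open because none passed an FDR of 0.05, and Ngfr was not tested in somata.

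An interaction term in a fit of the 20 libraries asked whether the genotype difference itself depended on the compartment. None of the 10 receptors passed (7 of 17645 genes did, 0.0397%), and none passed with DESeq2, which called 273 genes. Fgfr1 alone among the receptors reached an unadjusted p under 0.05 (6.98% of all genes did). Its interaction estimate was -1.82 ± 0.57 on the log2 scale (SE, unadjusted p = 0.00490, edgeR FDR = 0.422), with a lower growth cone mean and a higher soma mean in libraries labelled KO than in WT. The difference between sets in the compartment results of Met and Fgfr1 was therefore not past the threshold.

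The rest of the pathway was read from 6 lists of 98 genes in all, chosen by role with earlier results of these data known. Of 19 ligands of these receptors, 8 were tested in WT. Of these 7 were higher in growth cones and 1 in somata, against 23.1% and 19.7% of all genes. Of the 7, 4 did not reach the minimum count in every WT soma library, so the test took them in through growth cones, and the count is no measure of all 19. Fgf9, a ligand of Fgfr3, averaged 23.4 ± 11.9 CPM in WT growth cones and 3.02 ± 0.80 in WT somata (log2 2.99 ± 0.56 SE, edgeR FDR = 0.00105). Nrtn, which encodes neurturin, averaged 18.4 ± 9.47 and 0.714 ± 0.737 CPM (log2 4.72 ± 1.12 SE, edgeR FDR = 0.00502). Igf2 was low everywhere, at 1.82 ± 0.72 CPM in WT growth cones and 0.0537 ± 0.0744 in WT somata, where no library reached the minimum count. It is among the 7 and had to differ to be tested at all, so its call carries no weight. Fgf10 was the ligand higher in somata, at 19.3 ± 8.42 CPM against 0.392 ± 0.481 in growth cones (log2 -5.56 ± 1.25 SE, edgeR FDR = 0.00364). Only 2 WT growth cone libraries reached the minimum count for Fgf10, so the test took it in through somata. In libraries labelled KO, 5 of 10 ligands tested were higher in growth cones and 0 lower (21.6% and 17.0% of all genes). They included Fgf9 (log2 2.89 ± 0.40 SE), Nrtn (4.99 ± 1.22) and Fgf18 (2.41 ± 0.57). Of the 5, 3 (Ntf3, Nrtn and Igf2) did not reach the minimum count in every soma library labelled KO, so this count has the same limit. Igf2 reached it in none of those libraries.

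Among 18 co-receptors and related receptors, 14 were tested in WT, with 4 higher and 4 lower in growth cones, and 15 in libraries labelled KO, with 3 higher and 4 lower. Of all genes, 23.1% were higher and 19.7% lower in WT growth cones, and 21.6% and 17.0% in those labelled KO. Of the genes called higher, 3 of 4 in WT and 1 of 3 in libraries labelled KO did not reach the minimum count in every soma library. Ret, the kinase through which Gfra1 and Gfra2 signal, was higher in growth cones (13.1 ± 7.67 CPM against 0.928 ± 0.804 in WT, log2 3.87 ± 1.07 SE, edgeR FDR = 0.0115, and log2 5.12 ± 1.53, edgeR FDR = 0.0196 in libraries labelled KO). It reached the minimum count in 3 WT soma libraries and 1 labelled KO, so the test took it in through growth cones. Gfra4, another GDNF family receptor, was also higher there, by 1.34 ± 0.21 (SE, edgeR FDR = 0.000354) in WT and 1.15 ± 0.31 (edgeR FDR = 0.0110) in libraries labelled KO. Ncam1, the alternative partner of the Gfra proteins, was lower in growth cones at 399 ± 33.1 CPM against 1591 ± 236 in WT somata (log2 -1.95 ± 0.13 SE, edgeR FDR = 5.92e-07). Lingo1, a partner of Ngfr, was lower by the same test (log2 -1.55 ± 0.15 SE, edgeR FDR = 1.03e-05), as was the sorting receptor gene Sorcs1 (log2 -2.98 ± 0.88, edgeR FDR = 0.0168).

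Inside the cell, 18 adaptors and docking proteins were tested in both sets, with 1 higher and 7 lower in WT growth cones and 1 higher and 5 lower in growth cones labelled KO. The shares of all genes were 23.1% higher and 19.7% lower in WT, and 21.6% and 17.0% in libraries labelled KO, for this list and the next. The one higher was Frs3, a docking protein of Fgf and Trk receptors, by 1.82 ± 0.28 (SE, edgeR FDR = 0.000257) in WT and 2.32 ± 0.26 (edgeR FDR = 3.74e-05) in libraries labelled KO. Irs2, a docking protein of Igf1r, was lower by the same test (log2 -1.59 ± 0.30 SE, edgeR FDR = 0.00123, and -2.44 ± 0.34, edgeR FDR = 0.000176). Of 19 kinases and small GTPases, 4 were higher and 8 lower in WT growth cones, and 4 and 5 in libraries labelled KO. Hras stood at 964 ± 154 CPM in WT growth cones and 175 ± 17.9 in WT somata (log2 2.51 ± 0.15 SE, edgeR FDR = 2.66e-07). The MAP kinase gene Mapk3 was higher in WT growth cones by 0.80 ± 0.17 (SE, edgeR FDR = 0.00220). The kinase gene Akt1 was lower there (log2 -0.84 ± 0.13 SE, edgeR FDR = 0.000249).

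Of 13 feedback inhibitors, 2 were higher and 0 lower in WT growth cones (Spry2 by 3.91 ± 0.88 SE, edgeR FDR = 0.00366, and Grb10 by 1.75 ± 0.44, edgeR FDR = 0.00685), and 3 were higher and 1 lower in libraries labelled KO. Spry2 reached the minimum count in only 3 WT soma libraries, so the WT test took it in through growth cones. Of 10 transcriptional targets tested in WT, 2 were higher in growth cones and 1 lower, and of 8 tested in libraries labelled KO, 1 was higher and 2 were lower. These counts stand beside 23.1% higher and 19.7% lower of all genes in WT, and 21.6% and 17.0% in libraries labelled KO. Etv4 was higher in growth cones in both (log2 3.29 ± 0.98 SE, edgeR FDR = 0.0172, and 3.70 ± 0.83, edgeR FDR = 0.00397), though only 4 WT soma libraries reached the minimum count. Between genotypes no gene of the 6 lists passed in growth cones or in the interaction. In somata 3 did, 1 of 13 feedback inhibitors tested and 2 of 10 transcriptional targets tested. These lists were chosen with earlier results of these data known, so the counts are a description. All 3 genes were higher in libraries labelled KO (0.416% of all genes were called higher). They were the phosphatase gene Dusp6 (163 ± 13.9 CPM against 79.9 ± 6.27 in WT, log2 1.03 ± 0.10 SE, edgeR FDR = 0.000901) and the ETS factor genes Etv1 (272 ± 35.5 against 82.2 ± 33.9, log2 1.73 ± 0.23, edgeR FDR = 0.00475) and Etv5 (113 ± 23.1 against 59.5 ± 12.1, log2 0.92 ± 0.17, edgeR FDR = 0.0347). Etv1 is also on the list of subcerebral projection neuron markers. None of the receptors themselves passed in that comparison.

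**Figure D5:**
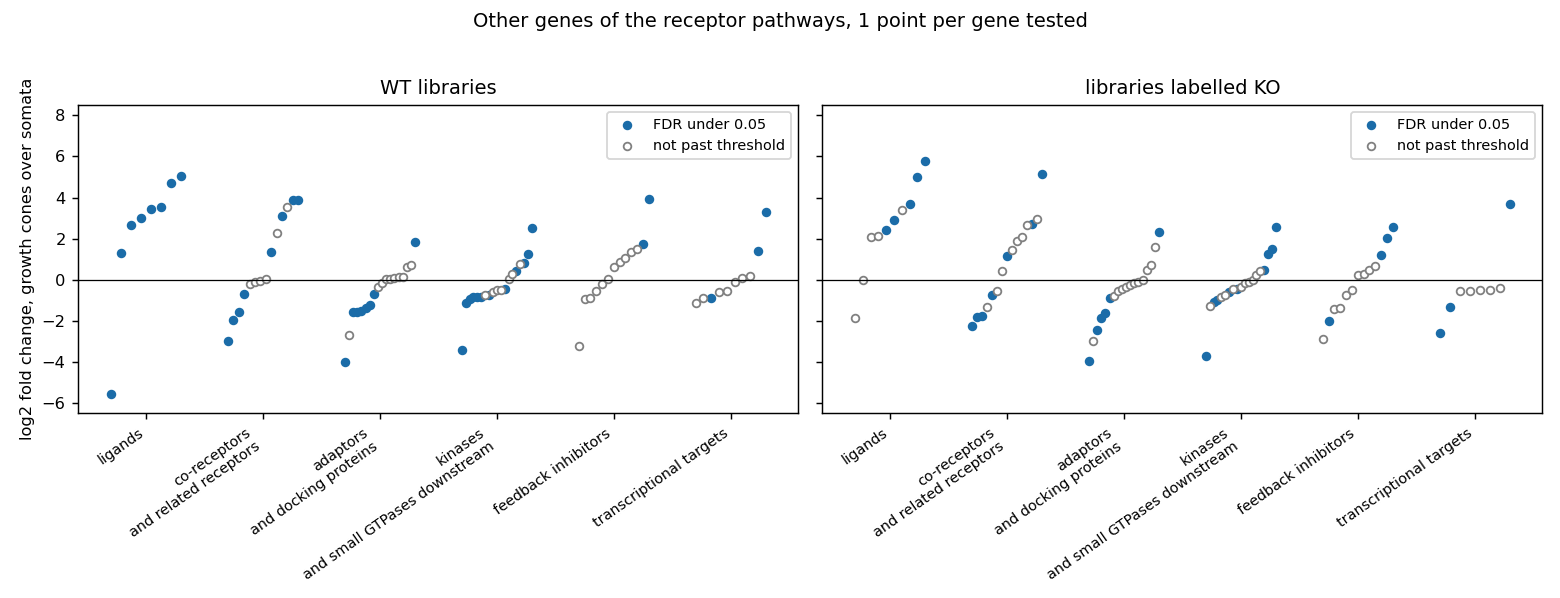
Log2 fold change between growth cones and somata for each tested gene of 6 pathway lists, in WT libraries and libraries labelled KO, with filled points where FDR was under 0.05. Most tested ligands lie above 0, while adaptors and kinases lie on both sides.

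Genes with the most similar profile over the 20 libraries were found by the root mean square (RMS) difference of centred log2(CPM + 0.5), over 11758 genes (11759 for Ngfr) with a group mean of at least 5 CPM. A smaller value is a closer profile. Ntrk2 was closest to Pcyox1 (RMS 0.305) and Cadm1 (0.345), where the median gene was at 1.37. Ntrk3 was closest to Ank (0.229) and Hpcal4 (0.261), with a median of 1.04. Igf1r was closest to Comtd1 (0.364) and Mplkip (0.377), Fgfr1 to Adgrb1 (0.476) and Hs3st4 (0.491), and Fgfr3 to Pcbd1 (0.532) and Srp19 (0.581). Met was closest to Arhgap23 (0.509) and Rprd1b (0.528). Gfra2 was closest to Tab2 (0.719) and to its ligand gene Nrtn (0.766), with a median of 2.48. Ngfr was closest to Slc25a33 (0.621) and Tpgs2 (0.638), with a median of 1.46. Ngfr itself averaged at most 1.65 CPM in any group, below the limit of 5 CPM, so the added 0.5 weighs heavily in its profile. The largest distances to a closest gene were those of Gfra1, with Tmem136 (1.31) and Fam20a (1.32), and Fgfr2, with Col5a1 (1.09) and Tbc1d13 (1.10).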

How the data were processed

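RNA libraries of 20 samples were used, in 4 groups of 5 taken from the sample titles. The authors deposited 1 table of raw gene counts per library, in featureCounts form per the file headers. The submitters' processing notes name Trimmomatic 0.39, STAR 2.7.1a, featureCounts 1.5.0 and the build GRCm39. The coordinates in the table are those of GRCm38, though: the exons of 54435 out of 55487 genes (98.1%) are identical to those of GENCODE M21, which supplied symbols for 55141. The treatment of strand and of reads mapping to several places is not given in the sources used here. Per the labels' protocols, libraries were made with SMART-seq v4 from 0.19 to 3.1 ng of RNA (growth cones) or 1.8 to 3.1 ng (somata). Every row names a gene, and each of the 20 count columns was matched to a sample. Replicates all differed beyond sampling noise by chi-square and none was merged. No molecular identifiers are named, so counting error is a lower limit of the error.

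Each comparison was fitted with edgeR 4.0.16 in R 4.3.3 on the 2 groups compared, over all genes: filterByExpr with a minimum count of 10, TMM scaling, the quasi-likelihood F test and Benjamini-Hochberg adjustment (FDR 0.05). The interaction was fitted on all 20 libraries. Log2 fold changes are growth cones minus somata or labelled KO minus WT, and their SE comes from the F statistic. Bcl11b was compared by an exact permutation test of log2(CPM + 0.5). The fits were tested on simulated data. Alternatives were DESeq2 1.42.0, limma-voom 3.58.1, other scalings, no filter, a fit of all libraries, detected genes as a covariate, the experiment number as a block, and each library left out. The receptors, the 6 pathway lists and the 10 marker lists were chosen with earlier results of these data known. All receptors are named. Of a pathway list, the 3 lowest p past the threshold in each direction, or the 2 most abundant genes where none passed, could be named, and of a marker list its genes at 0 and its most abundant. Some genes that this rule allows are not reported here. Promoters of the receptors came from RefSeq (GRCm38.p6).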

Additional observations from a re-analysis of the deposited data

Results flagged for a closer look

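Each receptor was examined in each group for a single library far from the other 4 (the gap to the nearest library against the range of the group, above Dixon's critical value of 0.71 for 5 libraries). This marked 3 of 40 groups, and chance marks about 1 in 20 groups. Ngfr in somata labelled KO was at 1.43 CPM in the library of experiment 22, where the other 4 were at 0.169 or less. Fgfr2 in WT somata was at 13 CPM in the library of experiment 22, where the other 4 were at 2.60 or less, and without it the growth cone difference passed the threshold. Igf1r in somata labelled KO was at 18.4 CPM in the library of experiment 15, below the other 4.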

How the results depend on the processing

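The count of receptors called was 4 to 7 in WT compartments over the alternatives and 4 to 6 when any library was left out. In libraries labelled KO it was 3 to 5 both ways, and it was 0 in the genotype comparisons and the interaction under every alternative run. Ntrk2, Fgfr3 and Gfra2 in both sets and Fgfr1 in WT passed the threshold under all of these. Ngfr in libraries labelled KO passed with limma-voom (log2 3.98, FDR = 0.0181) and without the soma library of experiment 22 (log2 4.47, FDR = 0.0225), Fgfr2 in WT passed with limma-voom (log2 4.37, FDR = 0.0168), and Igf1r in WT passed without the growth cone library of experiment 11 (log2 0.90, FDR = 0.0369). The cause was not tested. Upper-quartile scaling moved the median log2 difference of all genes from 0.07 to 0.28 in WT compartments and from 0.11 to 0.31 in those labelled KO, and limma-voom moved it to -0.17 and -0.19.

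Signs turned only in results that no test called. With limma-voom these were, in the growth cone genotype comparison, Fgfr2 (-0.30) and Met (-1.14), in compartments labelled KO Ntrk3 (-0.04), and in the interaction Ngfr (2.46) and Met (-0.62). With detected genes as a covariate they were Met in growth cones (-0.12), Fgfr3 in somata (-0.06), Ntrk3 in compartments labelled KO (-0.08) and Ntrk3 in the interaction (-0.00). Ntrk3 turned in WT compartments under DESeq2 size factors (0.02), upper-quartile scaling (0.15), library totals (0.09) and the DESeq2 test (0.02), in compartments labelled KO without the filter (-0.06) and in the fit of all 20 libraries (-0.06), and between soma genotypes under library totals (0.01). With single libraries left out, the growth cone genotype estimates ran from -0.15 to 0.26 for Ntrk3, -0.28 to 0.13 for Igf1r, -0.12 to 0.59 for Fgfr2, -0.43 to 0.16 for Fgfr3 and -0.13 to 0.45 for Met. Those of somata ran from -0.13 to 0.10 for Ntrk3, -0.26 to 2.31 for Fgfr2, 0.00 to 0.51 for Fgfr3 (without WT experiment 25 the value rounds to -0.00) and -0.38 to 0.71 for Gfra2. Ntrk3 ran from -0.28 to 0.10 in WT compartments and from -0.22 to 0.12 in those labelled KO. Interaction estimates ran from -0.18 to 0.26 for Ntrk3, -1.42 to 1.45 for Ngfr and -2.10 to 0.46 for Fgfr2.

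Both genotypes share experiment numbers in growth cones and, for 4 numbers, in somata. Libraries with the same number correlated in their deviations from the group means by 0.0115 to 0.133, above 0.1 for 3 of 9 numbers, so the numbers were not taken as a pairing, although 7 of 9 WT libraries correlated best with their own number. Fits with the number as a replicate block left out the soma libraries of experiments 12 (WT) and 15 (labelled KO), whose numbers are not shared. With this block, 0 receptors were called in either genotype comparison or in the interaction. Signs turned in growth cones for Fgfr2 (-0.09), Fgfr3 (0.00) and Met (-0.34) and in the interaction for Ngfr (2.96) and Gfra2 (0.38). No paired analysis was possible between compartments because growth cone and soma libraries share no number. Over all genes, the soma genotype count of 109 became 402 with DESeq2 and 30 in the fit of all 20 libraries. It became 34 with the block, a fit that also held fewer soma libraries. The count was 68 without the WT library of experiment 22 and 67 without its counterpart labelled KO. The growth cone count of 0 became 11 with DESeq2 and 7 in the fit of all 20. The interaction count of 7 became 273 with DESeq2, 4 with the covariate, 0 with the block, 12 without WT growth cones 7 and 11 without growth cones labelled KO 7. The low counts of Ngfr, of Fgfr2 and Gfra1 in somata, and the 5 libraries per group limit what these comparisons can detect.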
